A study of Mus musculus with 5 samples.

Results

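The genes described here make cholesterol and fatty acids. They were 29 genes chosen by name and found by their Ensembl identifiers among the 49671 genes counted, 21 in a sterol branch and 8 in a lipogenic branch, and all 29 were among the 14880 genes that had enough counts to be tested. The tissue was whole mouse heart at postnatal day 2 (PN2), from C57BL6/J mice that were either wild type (CharmeWT) or carried an allele in which a PolyA signal was inserted into the locus of Charme, a muscle long noncoding RNA (CharmeKO). Each library was polyadenylated RNA from a pool of hearts, with 3 CharmeWT pools of 9 hearts and 2 CharmeKO pools of 3 hearts, so that genotype and the number of hearts in a pool cannot be told apart. The pools took males and females at random. Whole-heart RNA mixes cardiomyocytes with every other cell of the organ, and fewer cells of a type and less RNA per cell cannot be told apart in it.

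Cholesterol is built from acetyl-CoA through mevalonate, isoprenoids and squalene, and then through a long series of ring modifications in the endoplasmic reticulum. The sterol sensor Scap carries the transcription factor SREBP-2, made by Srebf2, to the Golgi for activation when membrane sterol is low, and Insig1 holds it back when sterol is plentiful. SREBP-1, made by Srebf1, is the related factor best known for driving fatty acid synthesis, in which Acly, Acaca, Fasn, Elovl6 and the Scd desaturases act in turn. Neonatal heart muscle grows quickly and needs sterol and phospholipid for new membrane, while it burns fatty acids for energy, and fat depots around the heart are much richer in lipogenic enzymes than muscle is.

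The proximal promoters of the genes were examined because both factors act on such regions. RefSeq windows for GRCm38.p6, reaching from 250 bases before to 50 bases after an annotated start, were at hand for 23 of the 29 genes. The sterol regulatory element, the letters TCACNCCAC on either strand, was in the window of 1 of 17 sterol genes and of 0 of 6 lipogenic genes, against 1.44% of all 27025 genes with a window. CCAAT, the box bound by NF-Y, was in 16 of 17 sterol genes and 4 of 6 lipogenic genes, against 41.1% of all genes. GGGCGG, the GC box bound by Sp1, was in 16 of 17 and 3 of 6, against 38.2%, and the E-box CACGTG was in 5 of 17 and 0 of 6, against 8.09%. A gene was counted once if any of its windows held the letters, and a match of letters is a description and not a site of binding.

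The 180 bases before the RefSeq start are shown for 3 genes, on the gene's own strand, with every match to these motifs in capitals. Hmgcs1 is shown as the only gene with a sterol regulatory element match, whose first base lay 137 bases before the start. Nsdhl, a sterol gene with CCAAT boxes and a GC box, and Fasn, a lipogenic gene with CCAAT boxes alone, were added after their values were seen, because their CharmeKO pools lay on opposite sides of the CharmeWT pools. In Fasn a CCAAT box and one on the other strand overlap.
Hmgcs1, chr13:119690171-119690350, plus strand: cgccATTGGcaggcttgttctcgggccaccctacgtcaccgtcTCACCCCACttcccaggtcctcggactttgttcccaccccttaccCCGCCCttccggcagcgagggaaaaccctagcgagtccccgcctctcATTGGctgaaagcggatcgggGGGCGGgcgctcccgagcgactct
Nsdhl, chrX:72918341-72918520, plus strand: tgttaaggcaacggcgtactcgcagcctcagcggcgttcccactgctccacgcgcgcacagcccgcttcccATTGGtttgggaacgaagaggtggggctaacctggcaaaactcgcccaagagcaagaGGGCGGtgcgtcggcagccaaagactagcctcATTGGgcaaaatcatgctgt
Fasn, chr11:120824548-120824727, minus strand: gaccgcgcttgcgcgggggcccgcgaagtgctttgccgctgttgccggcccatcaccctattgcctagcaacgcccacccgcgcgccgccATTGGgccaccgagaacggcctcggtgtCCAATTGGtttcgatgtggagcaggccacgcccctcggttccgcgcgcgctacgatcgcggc

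The libraries held between 16721055 and 21646378 counts. Charme itself had 810, 183 and 276 counts in CharmeWT pools 1 to 3, and 57 and 79 counts in CharmeKO pools 1 and 2, so that the groups did not overlap and matched their labels. The summed level of 8 cardiomyocyte markers, among them Actc1, Myl3 and Myh6, was between 38123 and 49944 CPM (counts scaled by TMM-normalised library size) in all 5 pools. Of the 8, Myh6 was below every CharmeWT pool in both CharmeKO pools, against 18.2% of all genes. Another 2 of the 8 were above, against 17.8%, and none of them was called. CharmeKO pool 2 stood apart from the rest, because 10 salivary gland markers summed to 25003.5 CPM in it and to 329 CPM in CharmeKO pool 1, against at most 0.304 CPM in a CharmeWT pool. The 11 adipocyte markers summed to 1154 CPM in CharmeKO pool 2 and 75.2 CPM in CharmeKO pool 1, against 28.9 to 41.2 CPM in CharmeWT. All 5 markers of dividing cells were higher in CharmeKO, with log2 fold changes between 1.47 and 1.91, and their summed level was 1204 CPM in CharmeKO pool 1, 651 CPM in CharmeKO pool 2 and 233 to 330 CPM in CharmeWT. The part of these RNAs in the results below was not tested, except where values without a pool are given.

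Between the genotypes, the sterol branch showed no gene that passed the test, and the lipogenic branch showed 2, the desaturase Scd1 and the elongase Elovl6, both higher in CharmeKO. A gene was called when its adjusted p in edgeR's quasi-likelihood test was under 0.1 and its mean level was at least 1 FPKM (counts scaled by library size and by exon length) in either genotype. Of all genes tested, 2.05% were called, 1.53% as higher and 0.524% as lower. At an unadjusted p under 0.05 there were 4 of the 21 sterol genes and 2 of the 8 lipogenic genes, against 18.6% of all genes. The sterol genes' median log2 fold change, CharmeKO over CharmeWT, was 0.19, that of the lipogenic genes 0.15, and that of all genes 0.02.

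**Figure D1:**
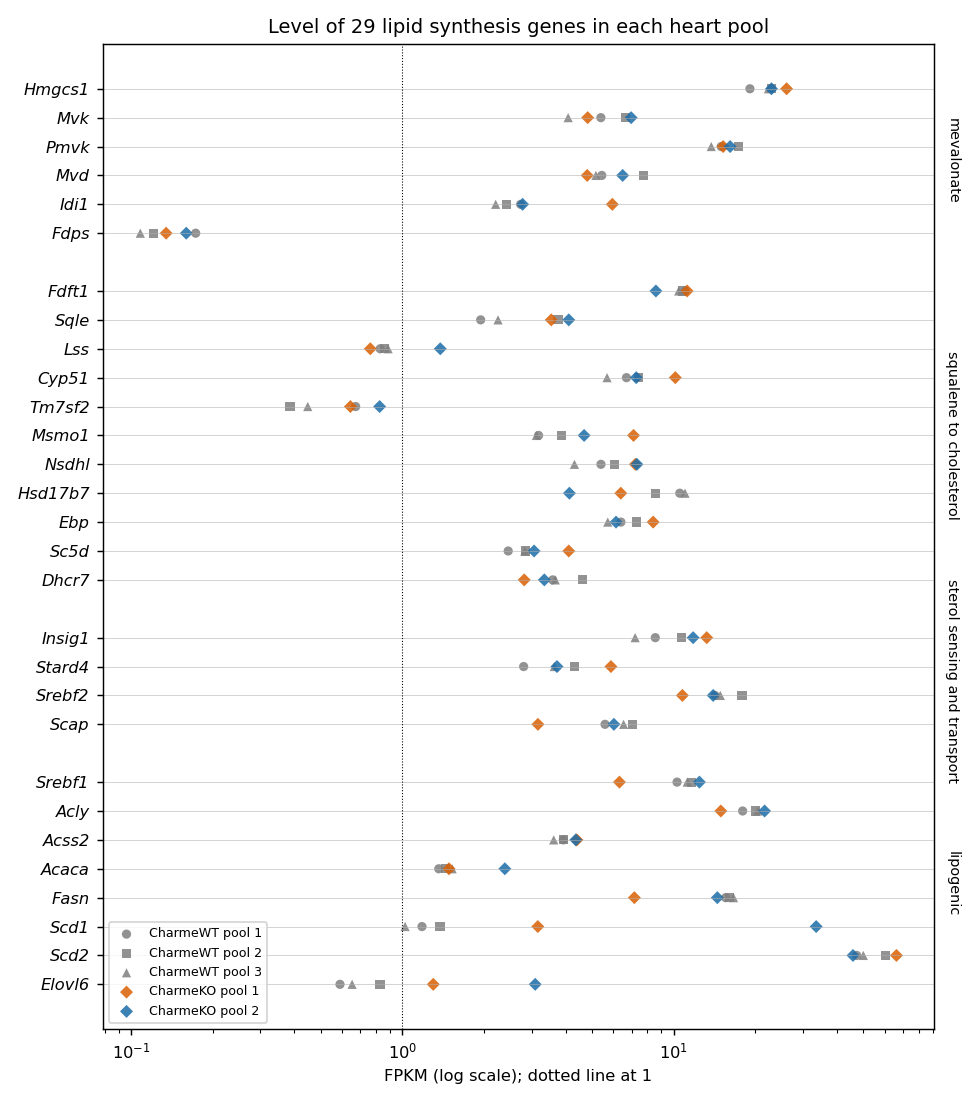
Level of each of the 29 genes in FPKM, on a log axis, in the 3 CharmeWT pools (grey) and CharmeKO pools 1 (orange) and 2 (blue), grouped by role, with a dotted line at 1 FPKM. In 17 of the 29 genes the CharmeKO pools overlap the CharmeWT pools. In 8, Scd1 and Elovl6 among them, both CharmeKO pools lie to the right of every CharmeWT pool, against 17.8% of all genes. In 4, Hsd17b7 among them, both lie to the left, against 18.2%.

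The levels of the sterol genes spanned a wide range in neonatal heart. Per length, the most abundant sterol gene was Hmgcs1, the cytosolic synthase that makes HMG-CoA, at 21.5 ± 2.09 FPKM (SD, n = 3) in CharmeWT and 24.5 ± 2.22 (n = 2) in CharmeKO. Srebf2 and Pmvk followed it at 15.6 ± 1.95 and 15.3 ± 1.79 FPKM in CharmeWT, a difference smaller than the spread between pools. Tm7sf2, a sterol reductase, and Lss, which closes squalene epoxide into lanosterol, stayed under 1 FPKM in CharmeWT at 0.502 ± 0.151 and 0.858 ± 0.029. Such ranks depend on the exon length used, which was 10787 bases for Lss and 1859 for Mvd. In CharmeWT pools 1 to 3 Lss had 184, 164 and 189 counts and Mvd 208, 255 and 190. Fdps, which makes farnesyl diphosphate, was counted at only 56 reads over all 5 pools. It shares its strand and position with another annotated protein-coding gene, Gm43738, which was counted at 0, and the level of Fdps is therefore uncertain. Tm7sf2 overlaps Vps51 on the same strand and carries the same uncertainty.

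Among the 6 mevalonate genes, 5 overlapped between genotypes, and in 1, Idi1, both CharmeKO pools were above every CharmeWT pool. The share of all genes above in this way was 17.8%. Idi1 is the isomerase that interconverts the 5-carbon isoprene units from which all sterols are assembled, and it lies at chr13:8885501-8892451 (GRCm38). Its level was 2.73, 2.42 and 2.21 FPKM in CharmeWT pools 1 to 3, and 5.94 and 2.78 FPKM in CharmeKO pools 1 and 2. CharmeKO pool 1 thus stood far above all others, while CharmeKO pool 2 was only just above the highest CharmeWT pool. The log2 fold change was 0.82 (95% interval 0.11 to 1.53), with an adjusted p of 0.227 in edgeR's quasi-likelihood test, and it was 0.18 with CharmeKO pool 1 left out. 

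The other mevalonate genes overlapped between the genotypes. Hmgcs1 ranged from 19.1 to 23 FPKM in CharmeWT and was 26.1 and 22.9 FPKM in CharmeKO, with a log2 fold change of 0.19 and an interval from -0.20 to 0.58. For the kinases Mvk and Pmvk, which phosphorylate mevalonate in turn, the log2 fold changes were 0.14 (-0.46 to 0.75) and 0.03 (-0.41 to 0.47). Mvd, the decarboxylase that yields isopentenyl diphosphate, had a log2 fold change of -0.11 (-0.72 to 0.50), and Fdps one of 0.15 with a wide interval from -1.01 to 1.30. The intervals of Hmgcs1 and Pmvk did not reach past 0.58 in either direction, whereas that of Fdps reached past 1 in both. The 6 genes had a median of 0.14.

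The 11 genes from squalene to cholesterol spread more widely than the other sterol genes, with log2 fold changes between -0.94 and 0.80 around a median of 0.40. In 3 of the 11, both CharmeKO pools were above every CharmeWT pool, and in 2 both were below. Over the whole sterol branch these counts were 5 and 3 of 21, against 17.8% of all genes above and 18.2% below. Of the 3 enzymes that together strip the methyl groups from carbon 4 of the sterol ring, 2 were higher in both CharmeKO pools and 1 was lower.

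Msmo1, the methylsterol monooxygenase that begins this removal, lies at chr8:64718139-64733792. It was at 3.18, 3.86 and 3.12 FPKM in CharmeWT pools 1 to 3, and at 7.11 and 4.68 FPKM in CharmeKO pools 1 and 2. Both CharmeKO pools were above all CharmeWT pools, and the 2 CharmeKO pools differed from each other by more than the CharmeWT pools did. Its log2 fold change was 0.80 with a standard error of 0.23, and the adjusted p was 0.145, short of the threshold.

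Nsdhl, the dehydrogenase that carries out the next step, was even between the CharmeKO pools. Its level was 5.40, 6.05 and 4.31 FPKM in CharmeWT and 7.23 and 7.32 FPKM in CharmeKO. Its log2 fold change was 0.47 (-0.03 to 0.97) with an adjusted p of 0.288, and it hardly moved with either CharmeKO pool left out (0.48 and 0.46), but it was 0.27 with a correction for gene length and GC content.

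Hsd17b7, the ketoreductase that completes the removal and that can also reduce estrone to estradiol, went the other way. It lies at chr1:169949535-169969241, and its level was 10.5, 8.59 and 11 FPKM in CharmeWT pools 1 to 3 but 6.38 and 4.13 FPKM in CharmeKO pools 1 and 2. Both CharmeKO pools were below every CharmeWT pool, with CharmeKO pool 2 the lowest of all. This gave a log2 fold change of -0.94 with a standard error of 0.23 and an interval from -1.46 to -0.42, and the adjusted p of 0.105 was the lowest of the sterol branch and just above the threshold. With edgeR's likelihood ratio test, which called 6.27% of all genes, and with DESeq2, which called 7.54%, the sterol branch had 2 called genes, Hsd17b7 with adjusted p of 0.0155 and 0.0107 and Msmo1 with adjusted p of 0.0518 and 0.0446.

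**Figure D2:**
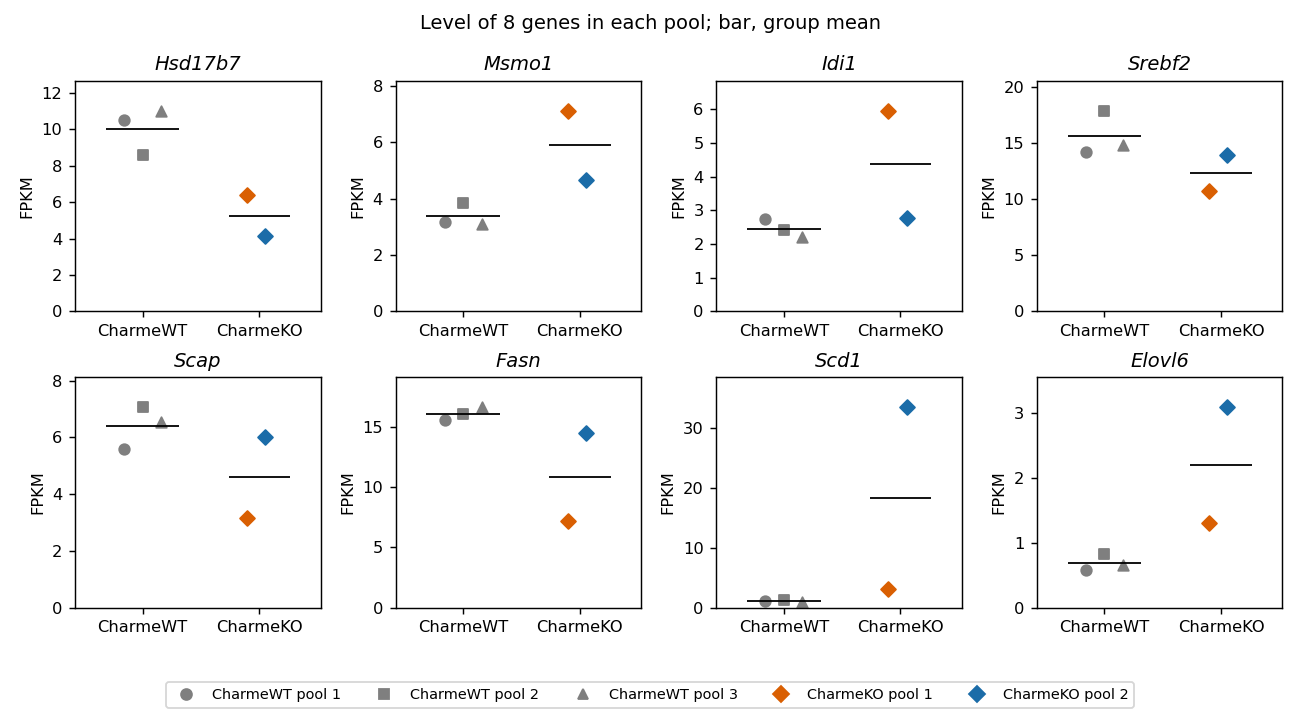
Level in FPKM (linear axes from 0) of 8 genes in each CharmeWT pool (grey) and in CharmeKO pools 1 (orange) and 2 (blue), with a bar at each group's mean. Hsd17b7 is lower and Msmo1 higher in both CharmeKO pools, Scap and Fasn are lowest in CharmeKO pool 1, and Scd1 and Elovl6 are highest in CharmeKO pool 2.

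The groups overlapped in most of the remaining genes of the late pathway. Sqle, the oxygenase that turns squalene into squalene epoxide, was at 1.94, 3.75 and 2.25 FPKM in CharmeWT and 3.54 and 4.11 FPKM in CharmeKO. The groups thus overlapped through CharmeWT pool 2, and the log2 fold change of Sqle was 0.53 (-0.11 to 1.18). Cyp51, the lanosterol demethylase, had a log2 fold change of 0.40 (-0.08 to 0.88) and was highest in CharmeKO pool 1, at 10.1 FPKM against 5.68 to 7.44 in CharmeWT. Sc5d, which adds a double bond late in the pathway, had a log2 fold change of 0.40 (-0.11 to 0.91), with both CharmeKO pools, at 4.11 and 3.06 FPKM, above the highest CharmeWT pool at 2.84. These 3 genes thus had similar fitted differences, and none was distinguishable from 0 at this number of pools.

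Dhcr7, the reductase that makes cholesterol from its immediate precursor, was on the low side, at 2.81 and 3.34 FPKM in the CharmeKO pools against 3.58 to 4.60 in CharmeWT, with a log2 fold change of -0.36 (-0.84 to 0.13). Fdft1, the squalene synthase, had a log2 fold change of -0.12 (-0.54 to 0.30), and Ebp, a sterol isomerase, one of 0.17 (-0.36 to 0.69). Lss and Tm7sf2 had 0.33 and 0.55, and both overlapped between the genotypes. In Lss the higher value came from CharmeKO pool 2 alone, at 1.38 FPKM against 0.762 in CharmeKO pool 1, and the sign turned to -0.18 without that pool.

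Among the 4 genes of sterol sensing and transport, the values centred on 0.04, their median on the log2 scale. Insig1, which retains the Scap complex in the endoplasmic reticulum and is itself a target of SREBP-2, was at 8.56, 10.7 and 7.21 FPKM in CharmeWT and 13.2 and 11.8 FPKM in CharmeKO. Both CharmeKO pools were above every CharmeWT pool, with a log2 fold change of 0.51 (0.03 to 0.98) and an adjusted p of 0.25 in edgeR's quasi-likelihood test. Stard4, a soluble carrier of sterol, had a log2 fold change of 0.42 with an adjusted p of 0.41 and was at 5.87 and 3.72 FPKM in CharmeKO against 2.80 to 4.31 in CharmeWT.

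The factor and its escort had log2 fold changes below 0 with all 5 pools, but near 0 with a correction for gene length and GC content, under which Srebf2 turned to 0.025 and Scap was at -0.13. Srebf2 was at 14.2, 17.9 and 14.9 FPKM in CharmeWT and at 10.8 and 14.0 FPKM in CharmeKO, which put CharmeKO pool 1 well below and CharmeKO pool 2 only just below the lowest CharmeWT pool. Its log2 fold change was -0.34 (-0.77 to 0.09) with an adjusted p of 0.371. Scap was at 5.59, 7.06 and 6.54 FPKM in CharmeWT, 3.16 FPKM in CharmeKO pool 1 and 6.02 FPKM in CharmeKO pool 2, so that only CharmeKO pool 1 lay outside the CharmeWT range. For Scap it was -0.47 (-1.07 to 0.12).

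The 2 CharmeKO pools were unlike each other in the sterol branch. With CharmeKO pool 2 left out, so that the lone CharmeKO pool 1 was assumed to vary like the CharmeWT pools, 6 of the 20 sterol genes then tested were called higher, against 16.1% of all genes, and 3 were called lower, against 15.6%. The 6 were Idi1 (log2 fold change 1.27), Msmo1 (1.07), Stard4 (0.71), Cyp51 (0.61), Sc5d (0.59) and Insig1 (0.58), and the 3 were Scap (-1.02), Hsd17b7 (-0.66) and Srebf2 (-0.54). With CharmeKO pool 1 left out, 1 sterol gene was called, Hsd17b7 at -1.28, against 4.33% of all genes. Hsd17b7 was thus the gene of the branch that was called with either CharmeKO pool alone. With the length and GC correction, Idi1 was at 0.45, Stard4 at 0.25, Sc5d at 0.18 and Dhcr7 at -0.15. The summed level of the branch was nearly flat, at 569 to 667 CPM in CharmeWT and 639 and 606 CPM in CharmeKO pools 1 and 2.

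**Figure D3:**
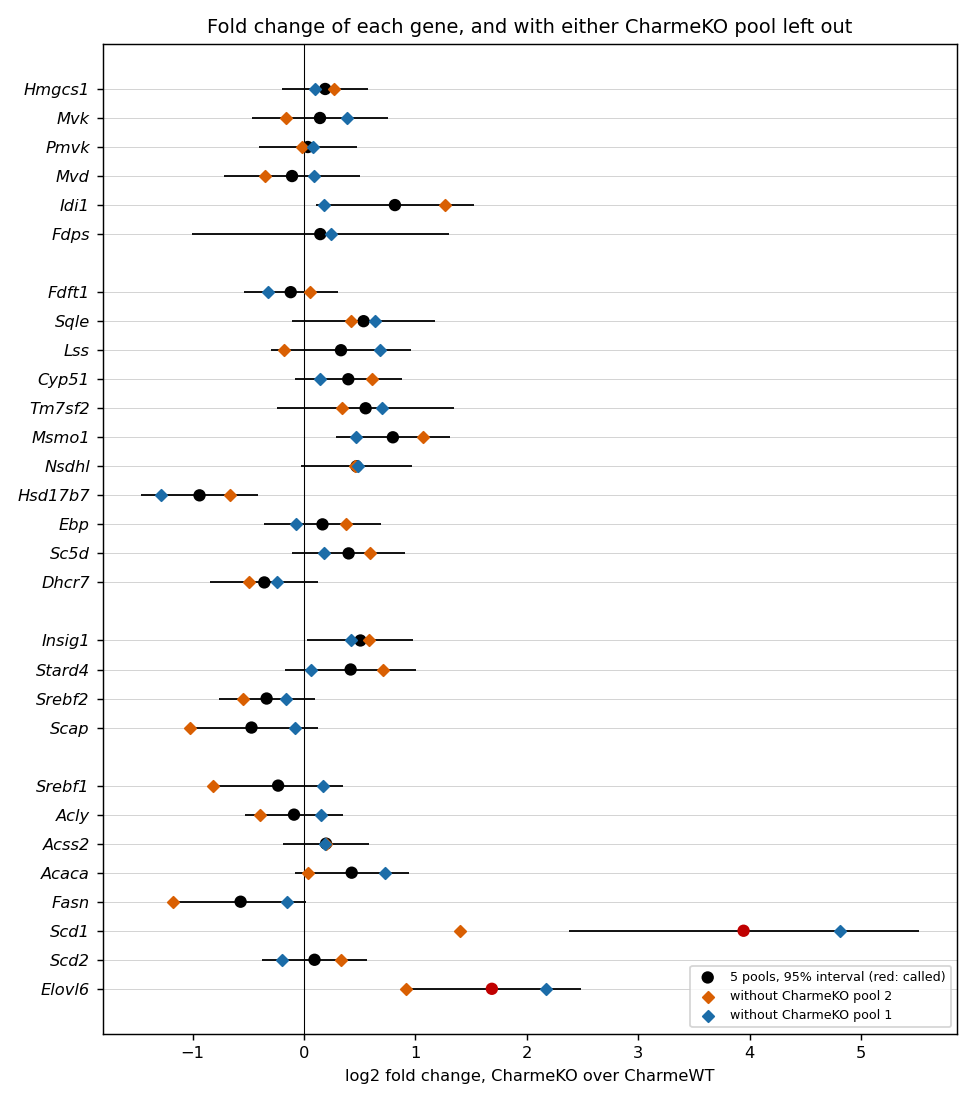
Log2 fold change of each gene, CharmeKO over CharmeWT, with all 5 pools (circles, red where called; bars, 95% interval), without CharmeKO pool 2 (orange) and without CharmeKO pool 1 (blue); Fdps was not tested without CharmeKO pool 2. Scd1 (3.95) and Elovl6 (1.69) are the called genes, Hsd17b7 (-0.94) is on the lower side in all 3 fits, and Fasn, Scap and Srebf1 lie near 0 without CharmeKO pool 1.

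In the lipogenic branch, the 2 called genes act at its end, on finished fatty acids. Scd1, the desaturase that makes oleate from stearate, lies at chr19:44394455-44407879. It was at 1.18, 1.38 and 1.02 FPKM in CharmeWT pools 1 to 3, at 3.16 FPKM in CharmeKO pool 1 and at 33.5 FPKM in CharmeKO pool 2. Both CharmeKO pools were above every CharmeWT pool, and CharmeKO pool 2 was far above CharmeKO pool 1. The log2 fold change was 3.95 with a standard error of 0.70 and an interval from 2.37 to 5.52, and the adjusted p in edgeR's quasi-likelihood test was 0.0447.

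Elovl6, which lengthens palmitate to stearate and so supplies Scd1, lies at chr3:129532355-129638495. Its level was 0.589, 0.827 and 0.653 FPKM in CharmeWT pools 1 to 3, and 1.30 and 3.09 FPKM in CharmeKO pools 1 and 2. The order of the pools was that of Scd1, with CharmeKO pool 2 the highest and no overlap between the genotypes. This was a log2 fold change of 1.69 with a standard error of 0.36, and the adjusted p was 0.0693. 

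The calls of these genes depended on which pool was left out, as did the number of calls over all genes. In edgeR's quasi-likelihood test without CharmeWT pool 1, the adjusted p of Scd1 was 0.171 and that of Elovl6 0.227. Without CharmeWT pool 3 they were 0.278 and 0.345, and without CharmeWT pool 2 they were 0.0641 and 0.101. Over all genes, 2 were called without CharmeWT pool 1, 0 without pool 3 and 187 without pool 2. In the same order, the log2 fold change of Scd1 was 3.94, 3.84 and 4.06. That of Elovl6 was 1.58, 1.64 and 1.83. Without CharmeKO pool 2, which left a lone CharmeKO pool, the log2 fold changes were smaller, 1.40 for Scd1 and 0.91 for Elovl6. 

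Adipocyte markers were called higher beside these genes. Of the 11 markers 9 could be tested and 7 were called higher in CharmeKO. None of those 7 had 10 counts in 2 CharmeWT pools. They reached the filter only with the CharmeKO pools counted, so the number of calls is not an open test. Ucp1, the uncoupling protein of brown fat, had 77, 0 and 0 counts in CharmeWT pools 1 to 3, 521 in CharmeKO pool 1 and 15830 in CharmeKO pool 2. Adipoq, which encodes adiponectin, had 10, 0 and 4 counts in CharmeWT and 41 and 1815 in CharmeKO, and Cfd, the adipocyte protease adipsin, had 2, 0 and 1 counts and then 35 and 1663. Cidea, a lipid droplet protein that brown fat and other cells express, had 730, 600 and 553 counts in CharmeWT and 333 and 3030 in CharmeKO, and was not called. Lep was at 0 in 4 pools and at 7 counts in CharmeKO pool 2. In Ucp1, Adipoq and Cfd, as in Scd1 and Elovl6, CharmeKO pool 2 was the highest and CharmeKO pool 1 came next, and the part of adipocyte RNA in these calls was not tested.

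**Figure D4:**
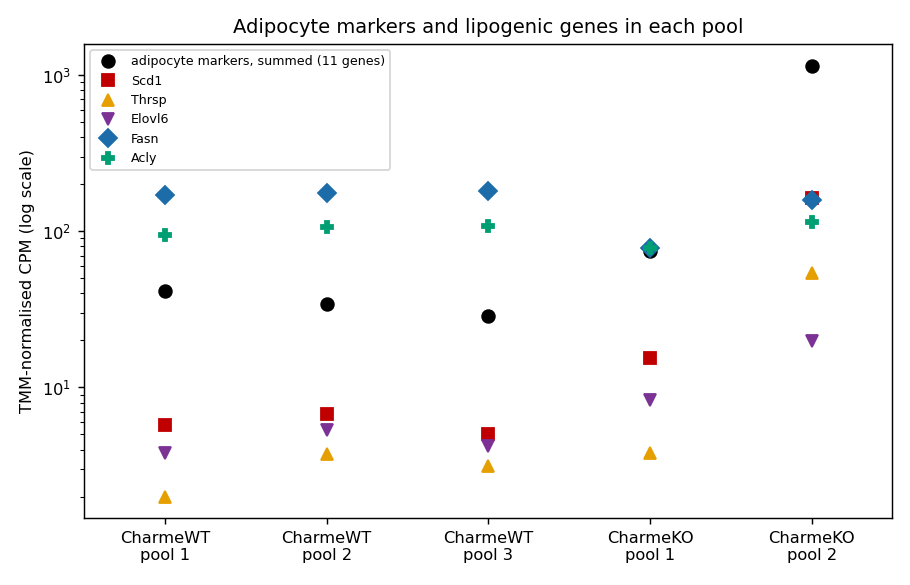
Normalised CPM, on a log axis, of the 11 adipocyte markers summed and of 5 lipogenic genes in each pool. The markers, Scd1, Elovl6 and Thrsp peak in CharmeKO pool 2, whereas Fasn and Acly have their lowest level in CharmeKO pool 1.

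The enzymes that make palmitate did not share this order of the pools, although Acly and Acaca were also highest in CharmeKO pool 2. Fasn, the fatty acid synthase, was at 15.5, 16.1 and 16.6 FPKM in CharmeWT, at 7.16 FPKM in CharmeKO pool 1 and at 14.5 FPKM in CharmeKO pool 2. Both CharmeKO pools were below the narrow range of the CharmeWT pools, CharmeKO pool 1 by far the more. The log2 fold change was -0.57 (-1.16 to 0.02) with an adjusted p of 0.282, and correcting for gene length and GC content brought it to -0.21.

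Srebf1 was also lowest in CharmeKO pool 1 but not low in CharmeKO pool 2, at 10.3, 11.6 and 11.2 FPKM in CharmeWT, 6.31 FPKM in CharmeKO pool 1 and 12.4 FPKM in CharmeKO pool 2, with a log2 fold change of -0.23 (-0.82 to 0.35). Acly, which splits citrate into cytosolic acetyl-CoA, was at 18.0 to 20.4 FPKM in CharmeWT and at 14.9 and 21.6 FPKM in CharmeKO, with a log2 fold change of -0.09 (-0.53 to 0.35). All 3 were lowest in CharmeKO pool 1, and Srebf1 and Acly were highest in CharmeKO pool 2. Without CharmeKO pool 2, Fasn (-1.17) and Srebf1 (-0.81) were called lower, beside Scd1 and Elovl6 as higher, against the shares of all genes given above for that fit. Without CharmeKO pool 1, Fasn was at -0.15, and the called genes were Scd1 (4.81), Elovl6 (2.17) and Acaca (0.73).

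Acaca, the acetyl-CoA carboxylase that commits carbon to fatty acids, was at 1.36 to 1.53 FPKM in CharmeWT and at 1.49 and 2.39 FPKM in CharmeKO, so that only CharmeKO pool 2 stood out, and its log2 fold change was 0.43 (-0.08 to 0.94). Acss2, which makes acetyl-CoA from acetate, was a little higher in both CharmeKO pools, at 4.40 and 4.36 FPKM against 3.61 to 3.92, with a log2 fold change of 0.20 (-0.19 to 0.58). Scd2, the neighbour and close relative of Scd1, was the most abundant of the 29 genes per length, at 52.5 ± 6.79 FPKM (n = 3) in CharmeWT and 56.0 ± 14.4 (n = 2) in CharmeKO. Its log2 fold change was 0.09 (-0.38 to 0.56), and in CharmeKO pool 2, where Scd1 reached 33.5 FPKM, Scd2 was at 45.8 FPKM, its lowest level. Whether reads common to these related genes were lost or split was not tested.

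Genes around the sterol pathway gave 1 call in 16, a lower level, against 2.05% of all genes called and 0.524% called lower. Npc1, the lysosomal membrane protein that releases cholesterol from incoming lipoprotein, was lower in CharmeKO, with 991, 869 and 1236 counts in CharmeWT and 318 and 655 in CharmeKO. Its level was 4.25, 4.35 and 5.52 FPKM in CharmeWT and 1.99 and 2.59 FPKM in CharmeKO, without overlap. The log2 fold change was -1.04 with a standard error of 0.21 and an adjusted p of 0.0664, and it was -0.86 and -1.25 without CharmeKO pools 1 and 2, whereas the adjusted p was 0.18 and 0.361 without CharmeWT pools 1 and 3.

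Npc2, the soluble partner that hands cholesterol to Npc1, was on the opposite side, at 18.9 to 21.7 FPKM in CharmeWT and 25.5 and 27.1 FPKM in CharmeKO (log2 fold change 0.39, interval 0.02 to 0.76, adjusted p 0.25). Tmem97, which binds Npc1 and sterols, was at 10.9, 16.5 and 9.79 FPKM in CharmeWT and at 29 and 18.5 FPKM in CharmeKO (log2 fold change 0.94, interval 0.31 to 1.56, adjusted p 0.152). Osbp, an oxysterol-binding carrier between membranes, was at 25.1 to 30.2 FPKM in CharmeWT and at 19.4 and 21.3 FPKM in CharmeKO (log2 fold change -0.46, interval -0.85 to -0.08, adjusted p 0.214). None of these 3 was called. Over the 16 genes, the CharmeKO pools were both above every CharmeWT pool in 5, against 17.8% of all genes, both below in 2, against 18.2%, and overlapped in 9, and the median log2 fold change was 0.21.

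Of the 7 genes of sterol efflux and its nuclear receptors, 6 were on the lower side, around a median of -0.46 on the log2 scale, and none passed the quasi-likelihood test of edgeR, although 3 had an unadjusted p under 0.05. The share of all genes at such a p was 18.6%. In 3 genes both CharmeKO pools were below every CharmeWT pool, against 18.2% of all genes. Lpcat3, which remodels phospholipids and is a target of the liver X receptors, was at 21.2 to 22.2 FPKM in CharmeWT and at 12.8 and 18.9 FPKM in CharmeKO (log2 fold change -0.46). Scarb1, the receptor for high-density lipoprotein, was at 9.54 to 11 FPKM and then at 5.36 and 8.44 FPKM (-0.56). Nr1h2, which encodes a liver X receptor, overlapped between the genotypes with a log2 fold change of -0.10. In Lpcat3 and Scarb1, as in Fasn and Scap, CharmeKO pool 1 was the lowest of the 5 pools.

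Of 18 further lipogenic and triglyceride genes, 1 was called, against 2.05% of all genes, and 7 had an unadjusted p under 0.05, against 18.6%. The CharmeKO pools were both above every CharmeWT pool in 3 of the 18, against 17.8% of all genes. They were both below in 4, against 18.2%. Thrsp, a lipogenic protein of fat and liver, had 41, 66 and 62 counts in CharmeWT, 54 in CharmeKO pool 1 and 1211 in CharmeKO pool 2, with a log2 fold change of 3.32 and an adjusted p of 0.09. Without CharmeKO pool 2 its log2 fold change was 0.38, so that the difference in Thrsp came mostly from that pool. Those of Scd1 and Elovl6 also became smaller without it, from 3.95 to 1.40 and from 1.69 to 0.91. Agpat2, an acyltransferase on the way to triglyceride, was likewise high in CharmeKO pool 2 alone, at 38.5 FPKM against 9.78 to 11.5 in the other 4 pools.

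Acacb and Dgat2 were on the same side of 0 as Fasn. Acacb, the carboxylase whose malonyl-CoA restrains fatty acid entry into mitochondria, was at 23.4, 24.6 and 24.4 FPKM in CharmeWT and at 8.30 and 16.2 FPKM in CharmeKO, with a log2 fold change of -0.98 (-1.56 to -0.40) and an adjusted p of 0.124. Dgat2, which makes triglyceride, was at 32.5 to 38.3 FPKM in CharmeWT and at 12.1 and 27.7 FPKM in CharmeKO, with a log2 fold change of -0.83 (-1.50 to -0.16) and an adjusted p of 0.201. Neither was called, although in both the CharmeKO pools lay below every CharmeWT pool. The median of the 18 genes was 0.21.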

How the data were processed

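Total polyadenylated RNA of 5 heart pools was sequenced by the authors as stranded paired-end reads of 150 nt. They trimmed reads and dropped those under 35 nt, aligned them with STAR to GRCm38 (mm10 per the labels' processing notes) and deposited raw counts per gene (Ensembl release 87, reverse-strand column). A table of FPKM that the authors also deposited was not used. From the counts, edgeR 4.0.16 in R 4.3.3 gave TMM-normalised CPM, FPKM (union exon length of GENCODE M21, a newer annotation of the same build) and the quasi-likelihood test on the 14880 genes that reached 10 counts in 2 or more pools, with p-values adjusted over all of these by the Benjamini-Hochberg method. The fit was also run on simulated counts with known changes and one spread for all genes. These held no RNA of other tissues, so they cannot show how the fit behaves with a pool such as CharmeKO pool 2. The study's likelihood ratio test and DESeq2 1.42.0 were alternatives, with other normalisations (RLE, upper quartile), filters on low counts (none, filterByExpr), a length and GC correction, a replicate block, and each pool left out. The members and the lists were chosen with earlier results of these data known. All 29 members are named. Genes of further lists are named if called or among the 3 with the highest mean FPKM, and those of marker lists if among the 3 highest. Adipoq, Lep, Sox10, Mrc1 and Myh8, and the promoters of Nsdhl and Fasn, were added after their values were seen. Sox10 and Myh8 are nonetheless among the 3 highest of their lists. Cyp7a1 and Myh4, at 0 counts in all 5 pools, are also named outside the rule. Pools of a genotype are the replicates. The paper states that littermates were used and their hearts pooled by genotype, but not which pools share a litter. Nothing states that pools of a genotype came from separate litters, so p-values measure the spread between these pools. No pair of pools held the same counts. Promoters came from RefSeq. Some genes of the marker lists are not reported here.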

Additional observations from a re-analysis of the deposited data

How the results depend on the processing

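The sterol branch had 0 called genes and the lipogenic branch 2 in the quasi-likelihood fit to 5 pools. With the likelihood ratio test and with DESeq2 the sterol count was 2 each, and with a correction for gene length and GC content it was 1, Hsd17b7 at -1.11 with an adjusted p of 0.0379. The lipogenic count was 1 with the robust form of the test (Elovl6, with Scd1 at an adjusted p of 0.2), 1 with the length and GC correction, 1 at an adjusted p under 0.05, and 0 with that correction and the replicate block together. Leaving out a pool in turn gave sterol counts from 0 to 9 and lipogenic counts from 0 to 4. The lipogenic median was 0.24 with the length and GC correction. Over all genes, 305 were called, against 933 with the likelihood ratio test, 1122 with DESeq2, 210 with the block, 47 with the block and the correction, and 111 at an adjusted p under 0.05. Leaving out CharmeWT pool 1, 2 or 3 gave 2, 187 and 0, and leaving out CharmeKO pool 1 or 2 gave 639 and 4607.

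Signs turned in genes that were not called with all 5 pools. With the length and GC correction Hmgcs1 was at -0.021, Mvd at 0.0052, Fdft1 at 0.015, Srebf2 at 0.025, Srebf1 at 0.053 and Acly at 0.069. With the replicate block Mvk was at -0.041 and Pmvk at -0.037, and with the block and the correction Srebf1 was at 0.031 and Acly at 0.086. Over the fits that left out a pool, the range was -0.16 to 0.38 for Mvk, -0.039 to 0.13 for Pmvk, -0.35 to 0.094 for Mvd, -0.32 to 0.053 for Fdft1, -0.18 to 0.69 for Lss, -0.073 to 0.37 for Ebp, -0.81 to 0.17 for Srebf1, -0.39 to 0.15 for Acly and -0.19 to 0.33 for Scd2. The cause was not tested. The block used pool numbers that only CharmeWT and CharmeKO pools 1 and 2 share. The correlation of their deviations was 0.137 and 0.0778. The paper states that littermates were used but not which pools share a litter, and the numbers were not taken as pairs. With 2 CharmeKO pools, leaving out either leaves a lone pool that is assumed to vary like the CharmeWT pools.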

Other observations

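Other cell types that make or handle much lipid were looked at through their markers. Of 9 hepatocyte markers 5 could be tested and none passed the quasi-likelihood test of edgeR. At an unadjusted p under 0.05 there were 0, against 18.6% of all genes. Cyp7a1 was at 0 in all 5 pools, and the list, led by Ahsg, Apoa2 and Ttr, summed to between 11.7 and 19.3 CPM. Sox10, a transcription factor of Schwann cells and also of salivary gland epithelium, had 14, 9 and 18 counts in CharmeWT, 8 in CharmeKO pool 1 and 286 in CharmeKO pool 2. CharmeKO pool 2 stood alone in it, and it was not called (adjusted p of 0.125 in edgeR's quasi-likelihood test). All 7 Schwann and myelinating markers, Sox10 among them, were tested, and 0 were called. The genotypes overlapped in all 7, with 4 log2 fold changes above 0 and 3 below.

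Of 6 macrophage markers, led by C1qa, Lyz2 and Cd68, 1 was called, against 2.05% of all genes. Mrc1, the mannose receptor, was at 2.17, 1.63 and 2.25 FPKM in CharmeWT and at 4.17 and 4.10 FPKM in CharmeKO, with a log2 fold change of 1.03 and an adjusted p of 0.0689, and the other 5 overlapped between the genotypes. Of 8 skeletal muscle markers 5 were tested and 1, the perinatal myosin Myh8, was called higher, against 1.53% of all genes. Myh8 had 35, 34 and 50 counts in CharmeWT and 114 and 503 in CharmeKO. Tnni2 and Tnnt3 were higher in both CharmeKO pools without being called, and Myh4 was at 0 in all pools. Of the 10 salivary gland markers, led by Bpifa2, Smgc and Prol1, 6 were tested and all 6 called higher. Those 6 reached the filter of 10 counts in 2 pools only through the CharmeKO pools. The direction of their calls was therefore fixed in advance. Bpifa2 had 0 counts in each CharmeWT pool, 2170 in CharmeKO pool 1 and 266768 in CharmeKO pool 2. The 5 markers of dividing cells, Top2a, Mki67 and Cdk1 among them, were all called higher, against 1.53% of all genes. They were highest in CharmeKO pool 1. Of the 21 sterol genes, 9 were highest in that pool, Idi1, Msmo1, Cyp51 and Stard4 among them, and 5 were lowest in it, Scap, Srebf2, Dhcr7, Mvd and Lss. The share of all genes highest or lowest in that pool was not computed, so these counts do not set the sterol genes apart from other genes. The part of dividing cells in those levels was not tested.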
